A study of Mus musculus with 20 samples.

Results

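The genes described here encode 38 proteins, most of them enzymes that break down amino acids. They were taken as a fixed list of gene symbols, chosen with earlier results of these data known. A member was measured where the array held a probe set annotated to that gene alone, and where there were several such probe sets, the brightest by its mean over the 20 arrays stands for the gene. Of the 38 genes, 35 were measured, and all 35 passed the filter on low signal that left 12947 of 18193 genes. Sds, Sdsl and Amt were not analysed here. Mut, methylmalonyl-CoA mutase, is listed on the array under its other symbol Mmut. The members cover tyrosine (6 measured), serine, glycine and glyoxylate (2), histidine (4), proline and glutamate (4), lysine (1), branched-chain amino acids and propionate (13), cysteine (2), and a last group of 3 that handle phosphoethanolamine, beta-amino acids and pyrimidines.

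Liver RNA came from male BALB/c mice that were 6 weeks old on arrival, with 1 array per mouse and 5 arrays in each of 4 groups. Untreated mice received no injection and ate the AIN93G diet. The other 3 groups carried the same injection of streptozotocin (STZ), which kills pancreatic beta cells, at 185 mg/kg into the peritoneum, and ate AIN93G alone, with 0.1% phloridzin or with 0.5% phloridzin for 14 days. Phloridzin is a plant glucoside that inhibits sodium-glucose cotransporters. The STZ mice were selected for the diets by blood glucose between 330 and 590 mg/dL, and no group received the injection vehicle alone, so that STZ and its injection cannot be told apart. The labels name no pooling of mice.

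The liver is the main site of breakdown for most amino acids other than the branched-chain ones. Most of the chains, though not every member, remove the amino group, which goes to urea. They turn the carbon skeleton into intermediates for glucose, ketone bodies or the citric acid cycle. Insulin restrains and glucagon and glucocorticoids raise several of these enzymes, and Tat, tyrosine aminotransferase, is a classical gene of that kind. The branched-chain ketoacid dehydrogenase complex is further controlled by a kinase, Bckdk, that switches it off.

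The values were linear signals, scaled by the authors so that the trimmed mean of every array was 100. Each group has 5 arrays, and the spread of a gene was estimated over all 20 arrays together, also where it differed between groups. The liver label was borne out by 8 of 8 measured hepatocyte markers (Tat among them) above a background limit of 17.1 in every group, and 0 of 5 skeletal muscle markers exceeded it. A pair of arrays stood apart. In STZ replicate 1, the log2 value of Cyp4a14, a fatty acid hydroxylase, was 6.02 against 11.41 to 12.52 in the other STZ arrays, and in 0.1% phloridzin replicate 4 the bioD spike-in control read 14067 against 3097 to 4794 in the other 19 arrays. Summed signals of some cell type markers also differed between untreated and STZ livers, from 1286 to 1467 against 209 to 1375 for erythroid genes (1 of 4 above background, Alas2, with ranges that overlap), from 1462 to 1951 against 415 to 889 for pancreatic genes (2 of 4, led by Cela1) and from 415 to 548 against 129 to 189 for B and plasma cell genes (4 of 6 in untreated and 3 of 6 in STZ, led by Ighm). Stellate cell genes, with 8 of 8 above background, summed to 2550 to 3917 against 1859 to 2797, and 4 of 8 fell in each comparison with untreated, in STZ liver Col3a1 at −1.35, Pdgfrb at −1.11, Reln at −0.61 and Col1a2 at −0.52. Of 7 sinusoidal endothelial genes 1 rose, Lyve1 at 1.19. Of the 8 hepatocyte markers 1 fell in STZ liver, Fgb at −0.41, and 3 of 8 had a difference above 0. Arrays of Fgb and Apoa1 did not overlap with untreated, both lower. Of 9 Kupffer cell genes 1 rose, Cd5l at 0.52, and 1 T and NK cell gene and 1 cholangiocyte gene fell. No marker was at 0, and the part of these cell types in the results below was not tested. In bulk tissue, fewer cells of a type and less RNA per cell cannot be told apart.

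More of the breakdown genes were higher than lower in STZ liver. Of the 35 members, 9 rose and 2 fell against untreated (limma, adjusted p under 0.05), which is 31.4% of them, where 13.8% of all 12947 genes were called (6.90% higher and 6.89% lower). The median log2 difference was 0.30 over the members and −0.05 over all genes, and 28 of 35 members had a difference above 0. The genes that rose were Etnppl, Agxt, Hal, Ftcd, Aldh4a1, Hgd, Aass, Bckdha and Mut, and those that fell were Csad and Ddc. Arrays of both groups did not overlap for 9 higher and 2 lower members, against 6.12% and 6.75% of all genes. Without STZ replicate 1 the number that rose was 15. Without any 1 of the untreated arrays, STZ replicate 1, 2, 3 or 5, or 0.5% phloridzin replicate 1, Ddc lost its call and 1 member fell.

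With 0.1% phloridzin, 13 members rose and 2 fell against untreated (16.7% of all genes called, 7.76% higher and 8.98% lower). The median difference was 0.30 over the members and −0.04 over all genes. These were the STZ genes with Tat, Prodh, Fah and Bckdhb in addition. Arrays did not overlap for 9 higher and 2 lower members, against 6.02% and 7.13% of all genes. The number that rose was 8 without untreated replicate 1 and 7 without untreated replicate 2 or 3 or without 0.1% phloridzin replicate 4 or 5, and it was 8 without both arrays that stood apart.

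With 0.5% phloridzin, 4 members rose (Etnppl, Agxt, Hgd and Ftcd) and 2 fell (Ddc and Csad) against untreated, where 12.7% of all genes were called, 6.53% higher and 6.18% lower. The median difference was 0.09 over the members and −0.01 over all genes. Arrays did not overlap for 4 higher and 2 lower members, against 5.41% and 5.71% of all genes. The number that rose was 10 without 0.5% phloridzin replicate 2, 1 without 0.5% phloridzin replicate 1, and 2 without untreated replicate 1, 2 or 3 or 0.5% phloridzin replicate 3 or 5. It was 2 with each array centred on its median, where Agxt and Ftcd lost their calls, and 1 member fell without untreated replicate 2 or 0.5% phloridzin replicate 1. All 3 comparisons use the same untreated arrays, so they are not independent of each other.

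**Figure D1:**
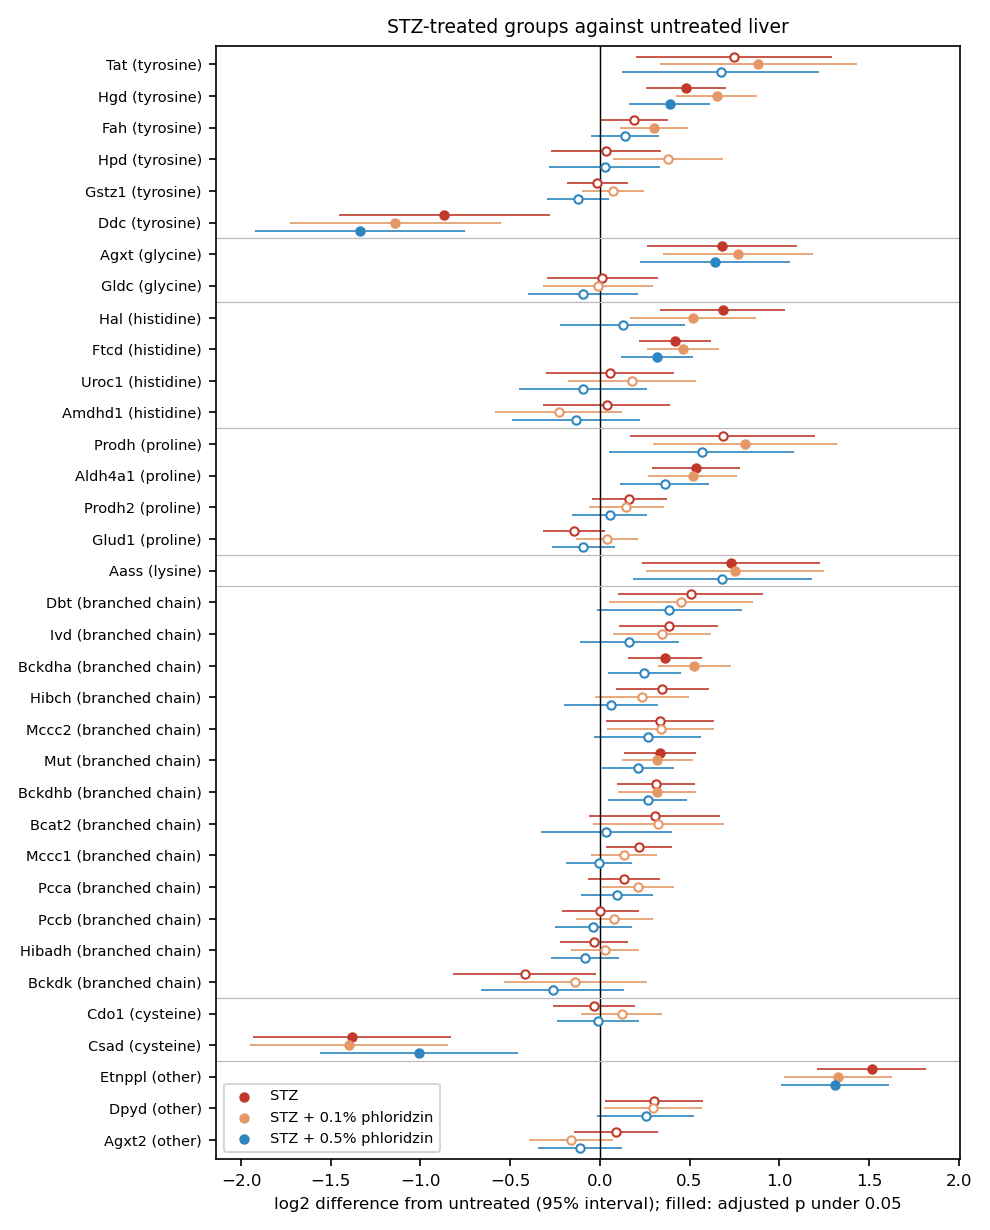
Log2 difference of each measured member from untreated liver, with its 95% interval, for STZ, STZ with 0.1% and STZ with 0.5% phloridzin (5 arrays per group), ordered by amino acid class. Filled points had a limma adjusted p under 0.05. Etnppl at 1.51, 1.33 and 1.31 lies farthest to the right, and Csad and Ddc lie to the left in each group.

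To show the promoters of genes that moved in all 3 groups, the 250 bases before the RefSeq start are given for Etnppl, the member with the largest rise, for Csad, with the largest fall under STZ, and for Ftcd, which had matches to 2 motifs. The letters are 5′ to 3′ on the gene's strand, in build GRCm38.p6, and capitals mark motif matches on either strand.

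Etnppl, chr3:130617198-130617447, plus strand: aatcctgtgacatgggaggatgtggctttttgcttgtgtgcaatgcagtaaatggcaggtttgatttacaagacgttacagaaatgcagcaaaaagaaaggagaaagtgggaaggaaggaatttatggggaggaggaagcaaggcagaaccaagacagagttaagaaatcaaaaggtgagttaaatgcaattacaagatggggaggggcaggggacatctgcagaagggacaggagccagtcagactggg
Csad, chr15:102205053-102205302, minus strand: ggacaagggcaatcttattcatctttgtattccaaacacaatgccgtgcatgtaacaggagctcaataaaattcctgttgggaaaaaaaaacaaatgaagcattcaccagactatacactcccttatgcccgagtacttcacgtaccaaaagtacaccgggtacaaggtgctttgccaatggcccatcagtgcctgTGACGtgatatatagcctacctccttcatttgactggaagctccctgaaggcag
Ftcd, chr10:76575398-76575647, plus strand: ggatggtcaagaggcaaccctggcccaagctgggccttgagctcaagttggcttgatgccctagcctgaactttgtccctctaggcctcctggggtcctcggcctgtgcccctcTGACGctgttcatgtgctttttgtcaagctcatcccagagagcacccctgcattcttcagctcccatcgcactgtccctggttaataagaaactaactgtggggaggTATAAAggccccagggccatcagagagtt

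Etnppl and Csad each have a second RefSeq start in the table, with no match before it. The Etnppl window shown also holds no match. The Csad window shown holds the cyclic AMP response core TGACG 54 bases before the start. The Ftcd window holds the same core at 136 bases and a TATA box, TATAAA, at 29 bases. The table held 41 such windows for 33 of the 38 members. Of these, 12.2% held TGACG, against 17.8% of all 32851 windows, and 17.1% held TATAAA, against 12.4%. The 17.1% are 7 windows of 6 genes, since 1 TATAAA site of Agxt2 was counted in both of its overlapping windows. The FoxO core GTAAACA was in 2.44% against 3.17%, the glucocorticoid receptor core AGAACA in 9.76% against 16.1%, the HNF4 core CAAAGTC in 4.88% against 3.84% (1 site of Agxt2, counted in both of its overlapping windows), and the C/EBP core TTGCGC in 0 of 41 windows against 5.34%. A match describes letters only, and none of these motifs overlapped another.

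Tyrosine breakdown runs from Tat through Hpd, Hgd and Gstz1 to Fah, and Hgd, homogentisate dioxygenase, was the step that rose in all 3 STZ-treated groups. In untreated liver the signal of Hgd was 4944, 4741, 4782, 4616 and 4494 in replicates 1 to 5. The STZ arrays read 5841, 6526, 6436, 7295 and 6899, the 0.1% phloridzin arrays 6173, 7086, 7710, 9086 and 7302, and the 0.5% phloridzin arrays 7600, 5201, 6379, 5740 and 6217. Every STZ-treated array lay above every untreated one. The mean was 4715 ± 171 (SD, n = 5) in untreated and 6599 ± 543 in STZ liver, a log2 difference of 0.48 ± 0.11 (SE, adjusted p = 0.00566). Against untreated it was 0.65 (adjusted p = 0.000469) with 0.1% and 0.39 (adjusted p = 0.0225) with 0.5% phloridzin, and the last call was lost without 0.5% phloridzin replicate 1 (adjusted p = 0.079).

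Tat starts the chain, and its signal in the STZ-treated groups ranged widely between mice. Its signal was 4612, 4244, 4692, 3992 and 3138 in untreated liver and 4249, 6765, 7833, 7854 and 8758 in STZ liver. It was 5021, 5328, 9563, 10939 and 8878 with 0.1% and 9606, 4284, 7472, 4151 and 9327 with 0.5% phloridzin. STZ replicate 1 and 0.5% phloridzin replicates 2 and 4 lay within the untreated range, and all 5 arrays with 0.1% phloridzin lay above it. Tat rose with 0.1% phloridzin, by 0.88 ± 0.26 (adjusted p = 0.0251). The difference was 0.75 (adjusted p = 0.063) in STZ liver and 0.67 (adjusted p = 0.0964) with 0.5% phloridzin. The 0.1% call was lost without untreated replicate 5 or 0.1% phloridzin replicate 3, 4 or 5 (adjusted p up to 0.0742) or without both arrays that stood apart (0.0543).

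Ddc, aromatic amino acid decarboxylase, which makes amines from aromatic amino acids, fell. Its untreated signals were 1735, 1272, 1402, 1240 and 1175, and the STZ signals 811, 840, 542, 1008 and 569. They were 1140, 819, 410, 475 and 441 with 0.1% and 541, 909, 361, 702 and 317 with 0.5% phloridzin. All 15 STZ-treated arrays lay below the lowest untreated array. The log2 difference was −0.87 ± 0.28 (adjusted p = 0.0448) in STZ liver, −1.14 (adjusted p = 0.00882) with 0.1% and −1.34 (adjusted p = 0.00408) with 0.5% phloridzin. Averaging in a second Ddc probe set that lay under background gave −0.53, −0.74 and −0.82. The STZ call was lost with no filter (adjusted p = 0.0601), a pseudocount of 1 (0.0655) or without both arrays that stood apart (0.0538). The remaining steps moved less. Fah, which releases fumarate and acetoacetate, rose by 0.30 with 0.1% phloridzin (adjusted p = 0.0279, up to 0.0812 without untreated replicate 1, 2 or 3 or 0.1% replicate 3 or 4, 0.0656 with only the groups compared and 0.0868 without both arrays that stood apart), with 0.19 in STZ liver and 0.14 with 0.5%. Hpd and Gstz1 lay at 0.03 and −0.01 in STZ liver.

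Agxt, the peroxisomal aminotransferase that turns glyoxylate into glycine, rose in all 3 groups. Untreated arrays read 1920, 2075, 1757, 2341 and 2286, and STZ arrays 2091, 3846, 3263, 4619 and 3287. Phloridzin arrays read 2483, 4039, 3371, 3623 and 4488 at 0.1% and 4650, 2434, 3052, 2589 and 3921 at 0.5%. Only STZ replicate 1 overlapped the untreated range among the 15 STZ-treated arrays. The log2 difference was 0.68 ± 0.20 (adjusted p = 0.0287) in STZ liver, 0.77 (adjusted p = 0.0121) with 0.1% and 0.64 (adjusted p = 0.0397) with 0.5% phloridzin. Leaving out STZ replicate 2, 3, 4 or 5, or one of untreated replicates 1, 2 and 3, ended the STZ call (adjusted p up to 0.0828), and the 0.5% call without untreated replicate 1, 2, 3 or 5 or 0.5% phloridzin replicate 1, 3 or 5 (up to 0.13), with median centring (0.0505), no filter (0.0531) or a pseudocount of 1 (0.0555). Gldc, the decarboxylating subunit of the glycine cleavage system, lay between −0.10 and 0.01 against untreated in the 3 groups.

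In the histidine chain, the entry and exit steps rose in STZ liver and the middle steps did not pass the test. Hal, histidase, read 870, 891, 792, 920 and 840 in untreated and 1106, 1518, 1119, 1954 and 1430 in STZ liver. It read 1348, 1622, 1003, 1188 and 1129 with 0.1% phloridzin and 1204, 938, 720, 1202 and 755 with 0.5%. All STZ and 0.1% arrays lay above the untreated range, whereas with 0.5% phloridzin 3 arrays lay above it and 2 below. The difference from untreated was 0.68 ± 0.17 (adjusted p = 0.00976) in STZ liver, 0.52 (adjusted p = 0.0378) with 0.1% and 0.13 (adjusted p = 0.682) with 0.5% phloridzin. The 0.1% call was lost without untreated replicate 1, 2, 3 or 5 or 0.1% phloridzin replicate 1, 2, 4 or 5 (adjusted p up to 0.0952), and with quantile normalization (0.0511), no filter (0.0501) or without both arrays that stood apart (0.0529). Ftcd, which passes the last carbon to folate, rose from 3012 ± 75.7 to 4040 ± 303 in STZ liver (0.42, adjusted p = 0.00683), to 4177 ± 437 with 0.1% phloridzin (0.46, adjusted p = 0.003) and to 3780 ± 464 with 0.5% (0.32, adjusted p = 0.0356), with no overlap with untreated arrays. The last of these calls was lost without untreated replicate 1, 2, 3 or 4 or 0.5% phloridzin replicate 1, 3 or 5 (adjusted p up to 0.114), with median centring (0.0535) and with only the groups compared (0.0575). Uroc1 and Amdhd1, the steps between, differed by 0.06 and 0.04 in STZ liver, but the probe sets of Uroc1 were unlike, since the other one differed by 0.86.

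Proline enters through Prodh, proline dehydrogenase, and its product is oxidised to glutamate by Aldh4a1. Aldh4a1 rose from 1258 ± 178 to 1817 ± 50.6 in STZ liver (0.54, adjusted p = 0.00527) and to 1805 ± 237 with 0.1% phloridzin (0.52, adjusted p = 0.00583), and with 0.5% it differed by 0.36 (adjusted p = 0.0503). Prodh read 749, 744, 727, 782 and 955 in untreated, and 839, 1207, 1402, 1496 and 1590 in STZ liver. It read 819, 1009, 1879, 1983 and 1689 with 0.1% and 1307, 647, 1419, 1146 and 1616 with 0.5% phloridzin. In each STZ-treated group 1 array (STZ replicate 1, 0.1% replicate 1 and 0.5% replicate 2) lay within or below the untreated range and the other 4 lay above it. Prodh rose with 0.1% phloridzin, by 0.81 ± 0.25 (adjusted p = 0.0288), and differed by 0.69 (adjusted p = 0.0703) in STZ liver and 0.57 (adjusted p = 0.14) with 0.5%. Its 0.1% call was lost without untreated replicate 1, 2 or 3 or 0.1% phloridzin replicate 3, 4 or 5 (adjusted p up to 0.0836) or without both arrays that stood apart (0.0673). Glud1, glutamate dehydrogenase, and Prodh2, which acts on hydroxyproline, were at −0.14 and 0.16 in STZ liver.

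Aass, the bifunctional enzyme that opens lysine breakdown, had the same outlying arrays. The signal was 1874, 1720, 1672, 1758 and 1677 in untreated and 1634, 3343, 3354, 3104 and 3579 in STZ liver. With phloridzin it was 1744, 2439, 3497, 3647 and 4058 at 0.1% and 3672, 1823, 3293, 2173 and 3599 at 0.5%. STZ replicate 1 lay below the untreated range, 0.1% replicate 1 and 0.5% replicate 2 lay within it, and the other 12 STZ-treated arrays lay above it. Aass rose by 0.73 ± 0.24 (adjusted p = 0.0459) in STZ liver and by 0.75 (adjusted p = 0.0343) with 0.1% phloridzin, and differed by 0.68 (adjusted p = 0.0646) with 0.5%. The STZ call was lost without any 1 untreated array, STZ replicate 2, 3, 4 or 5, or replicate 3 of either phloridzin group (adjusted p up to 0.115), with no filter (0.0615) and with a pseudocount of 1 (0.0639), and the 0.1% call without any 1 untreated array or 0.1% replicate 3, 4 or 5 (up to 0.102).

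**Figure D2:**
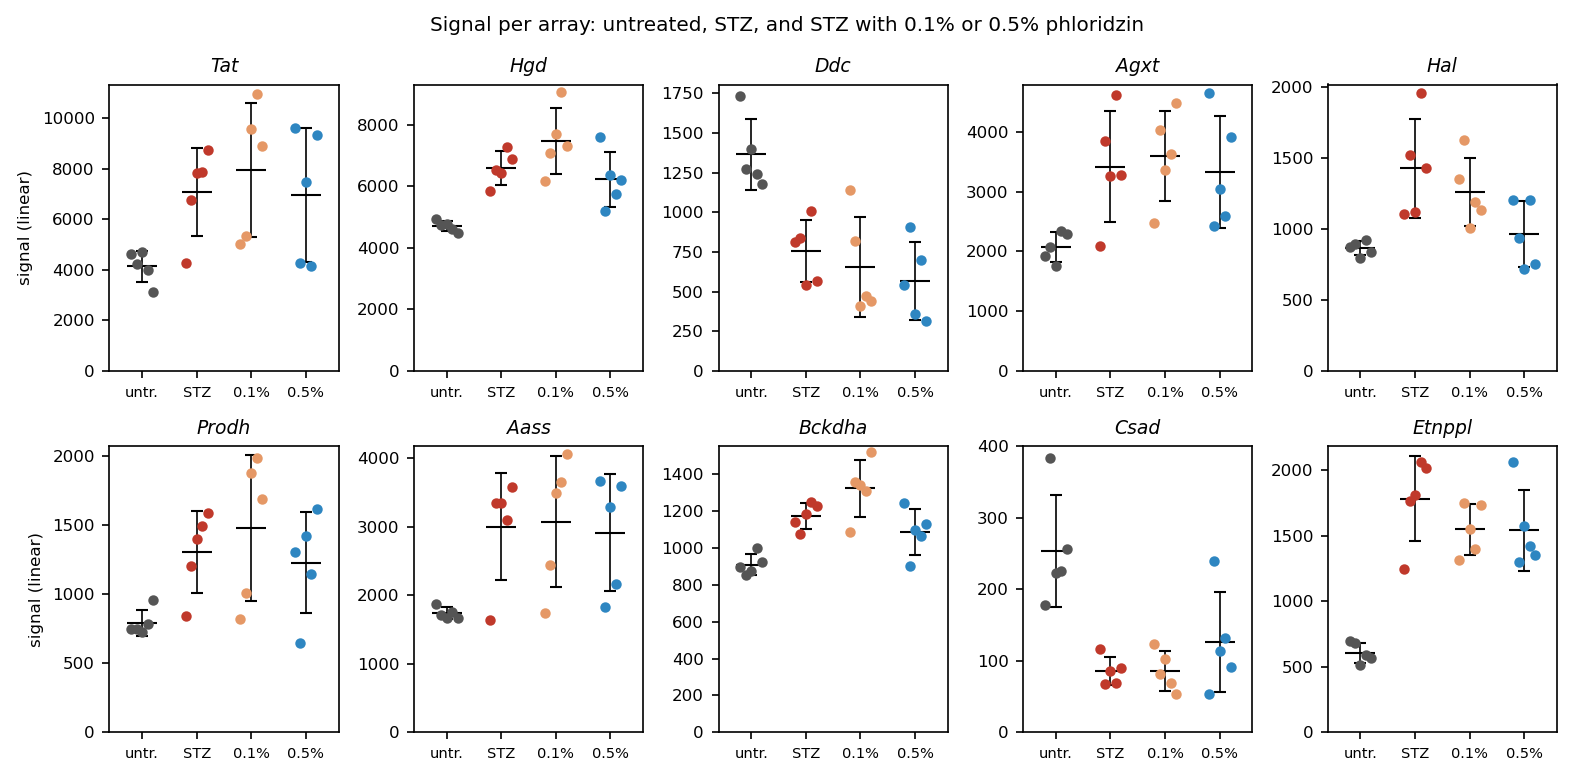
Linear signal of 10 members in each array (points), with the mean and SD of 5 arrays per group (bars), for untreated, STZ, and STZ with 0.1% or 0.5% phloridzin. Hgd, Ddc and Etnppl separate all STZ-treated arrays from the untreated ones, while Tat, Prodh and Aass have some STZ-treated arrays within or below the untreated range.

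Among the 13 branched-chain and propionate genes, 2 rose in STZ liver, 3 with 0.1% and 0 with 0.5% phloridzin (limma, with 9, 7 and 3 at an unadjusted p under 0.05), and none fell. These are 15.4%, 23.1% and 0% of the class, where 13.8%, 16.7% and 12.7% of all genes were called. By calls alone the class was near all genes in STZ liver. At an unadjusted p under 0.05, its 9, 7 and 3 of 13 stood beside 3671, 3994 and 3517 of 12947 genes. Arrays did not overlap with untreated for 3, 3 and 0 of its members, all higher, against 6.12%, 6.02% and 5.41% of all genes. The median differences of the class were 0.31, 0.32 and 0.09. Bckdha, the E1 alpha subunit of the ketoacid dehydrogenase, read 896, 854, 871, 1001 and 923 in untreated and 1137, 1074, 1182, 1249 and 1224 in STZ liver. It read 1088, 1356, 1342, 1307 and 1518 with 0.1% and 1242, 902, 1094, 1063 and 1127 with 0.5% phloridzin. Of the 15 STZ-treated arrays only 0.5% replicate 2 overlapped the untreated range. The differences were 0.36 ± 0.10 (adjusted p = 0.0176), 0.53 (adjusted p = 0.00128) and 0.25 (adjusted p = 0.102).

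The partner subunits lay close by in difference. Bckdhb, E1 beta, differed by 0.31 (adjusted p = 0.053) in STZ liver and rose by 0.32 (adjusted p = 0.0427) with 0.1% phloridzin, a call lost without untreated replicate 1, 2, 3 or 4, STZ replicate 3 or 0.1% replicate 2, 3, 4 or 5 (adjusted p up to 0.138), and with quantile normalization (0.0719), no filter (0.0556), only the groups compared (0.0752) or without both arrays that stood apart (0.0508). Dbt, the E2 core, differed by 0.51 (adjusted p = 0.0878) in STZ liver. The kinase Bckdk read 108 ± 22.2 in untreated and 76.6 ± 17.1 in STZ liver, a difference of −0.42 (adjusted p = 0.154). Further down, Mut rose by 0.33 (adjusted p = 0.0237) in STZ liver and 0.32 (adjusted p = 0.0253) with 0.1% phloridzin. Both calls were lost with the mean of its probe sets (0.20 and 0.13), which takes in a probe set under background. The other probe set above background differed by 0.27 and 0.19. Both calls were also lost without untreated replicate 2, 3 or 5, the STZ call without STZ replicate 3, 4 or 5 and the 0.1% call without 0.1% replicate 5. Ivd, of leucine breakdown, differed by 0.38 (adjusted p = 0.0574) and Hibch, of valine breakdown, by 0.35 (adjusted p = 0.0698) in STZ liver. Mccc1 and Mccc2, the carboxylase of the leucine route, had no overlap with untreated arrays in STZ liver at differences of 0.22 and 0.34, without passing the test. Pcca, Pccb and Hibadh lay between −0.03 and 0.14, and Bcat2, the transaminase known to be scarce in liver, at 0.30 (adjusted p = 0.265).

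In cysteine breakdown the steps differed. Csad, cysteine sulfinate decarboxylase, which leads to taurine, read 178, 384, 223, 225 and 256 in untreated and 117, 67.9, 85.3, 68.8 and 90.1 in STZ liver. It read 123, 82.2, 102, 69.1 and 53.4 with 0.1% and 53.8, 240, 114, 132 and 90.9 with 0.5% phloridzin. Only 0.5% replicate 2 reached the untreated range. Csad fell by 1.38 ± 0.26 (2.61-fold on the log2 of signal plus 16, adjusted p = 0.00173) in STZ liver, by 1.40 (adjusted p = 0.00145) with 0.1% and by 1.01 (adjusted p = 0.016) with 0.5% phloridzin. The last call was lost without untreated replicate 2 or 0.5% replicate 1 (adjusted p up to 0.0562). Cdo1, cysteine dioxygenase, which supplies the substrate of Csad, lay at −0.03, 0.12 and −0.01 in the 3 groups.

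The largest rise of any member was that of Etnppl, the lyase that splits phosphoethanolamine. Untreated arrays read 696, 678, 511, 587 and 565, and STZ arrays 1246, 1768, 1812, 2062 and 2013. With phloridzin the arrays read 1316, 1750, 1551, 1395 and 1735 at 0.1% and 2061, 1301, 1573, 1420 and 1351 at 0.5%. The lowest STZ-treated array, at 1246, lay above the highest untreated array, at 696. Etnppl rose by 1.51 ± 0.14 (2.86-fold, adjusted p = 1.32e-06) in STZ liver, by 1.33 (adjusted p = 6.49e-06) with 0.1% and by 1.31 (adjusted p = 7.23e-06) with 0.5% phloridzin. Its second probe set differed by 1.52 in STZ liver, 1.23 with 0.1% and 1.69 with 0.5% phloridzin. Agxt2, which clears beta-aminoisobutyrate, and Dpyd, which opens pyrimidine breakdown, differed by 0.09 and 0.30 in STZ liver, and neither passed the test in any group, although the 0.5% arrays of Agxt2 all lay below the untreated ones at a difference of −0.11.

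Of the 35 members, 20 had 1 probe set. Of the 12 with more than 1 above background, 11 had the same sign across their probe sets for STZ against untreated. The exception was Hibadh, with differences of −0.03 and 0.02. For 0.5% phloridzin against STZ, signs differed for Hgd (−0.09 and 0.23), Mccc2 (−0.07, 0.05 and −0.21) and Etnppl (−0.21 and 0.17).

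Some arrays were low across many members. STZ replicate 1 had the lowest value of its group for 23 of 35 members, 0.1% phloridzin replicate 1 for 23 and 0.5% phloridzin replicate 2 for 21, while 0.5% replicate 1 had the highest for 21. STZ replicate 1 exceeded the untreated range in 9 members, whereas the other STZ arrays exceeded it in 23 to 26. With 0.1% phloridzin, replicate 1 exceeded it in 12 members and the others in 22 to 26, and with 0.5%, replicate 2 exceeded it in 7 and the others in 14 to 22. The labels name nothing that sets these arrays apart, but some other genes also differed in them, most clearly in STZ replicate 1. The erythroid sum, mostly Alas2, was the highest of its group in each, at 1375 in STZ replicate 1 (209 to 384 in the other STZ arrays), 1111 in 0.1% replicate 1 (153 to 603) and 897 in 0.5% replicate 2 (230 to 868), where untreated arrays had 1286 to 1467. The log2 value of Cyp4a14 was 6.02, 10.01 and 9.55 in these arrays, against untreated values from 4.45 to 5.62, and in the others of their groups it was 11.41 to 12.52, 9.94 to 12.58 and 9.68 to 12.21. The array with 9.94, 0.1% replicate 2, exceeded the untreated range in 26 members. In 0.5% replicate 4, with 9.68 and an erythroid sum of 868, 15 members exceeded it. The part of Cyp4a14 or the erythroid genes in the low values was not tested.

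Leaving out such arrays moved members past the threshold. They were singled out by low values in these same members. Larger rises without them therefore follow from that choice and are no support for the calls gained. Without STZ replicate 1, the STZ difference was 0.92 for Tat (adjusted p = 0.0209), 0.83 for Prodh (0.0283), 0.36 for Bckdhb (0.0286), 0.60 for Dbt (0.049), 0.42 for Ivd (0.0461) and 0.43 for Hibch (0.0268). Without 0.5% phloridzin replicate 2, the 0.5% difference from untreated was 0.82 for Tat (adjusted p = 0.0383), 0.78 for Prodh (0.0231), 0.42 for Aldh4a1 (0.0255), 0.84 for Aass (0.02), 0.31 for Bckdha (0.0325) and 0.32 for Bckdhb (0.0439). Without 0.1% phloridzin replicate 1, the 0.1% difference was 0.47 for Hpd (adjusted p = 0.0323) and 0.44 for Ivd (0.018). Other single arrays did so as well. For STZ these were 0.1% replicate 1 (Prodh, Ivd, Hibch), 0.1% replicate 5 (Bckdhb, Hibch), 0.5% replicate 1 (Ivd), 0.5% replicate 2 (Prodh, Bckdhb, Ivd), untreated replicate 4 (Ivd) and untreated replicate 5 (Bckdhb), with adjusted p from 0.0294 to 0.0496. For 0.1% phloridzin they were 0.1% replicate 3 (Mccc2), untreated replicate 4 and 0.5% replicate 2 (both Ivd), with adjusted p from 0.0198 to 0.0499. For 0.5% they were 0.5% replicate 4 (Tat, Aass), STZ replicate 1 (Aass), 0.1% replicate 1 (Aldh4a1, Aass), 0.1% replicate 5 and untreated replicate 4 (both Aldh4a1), with adjusted p from 0.0313 to 0.0491.

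**Figure D3:**
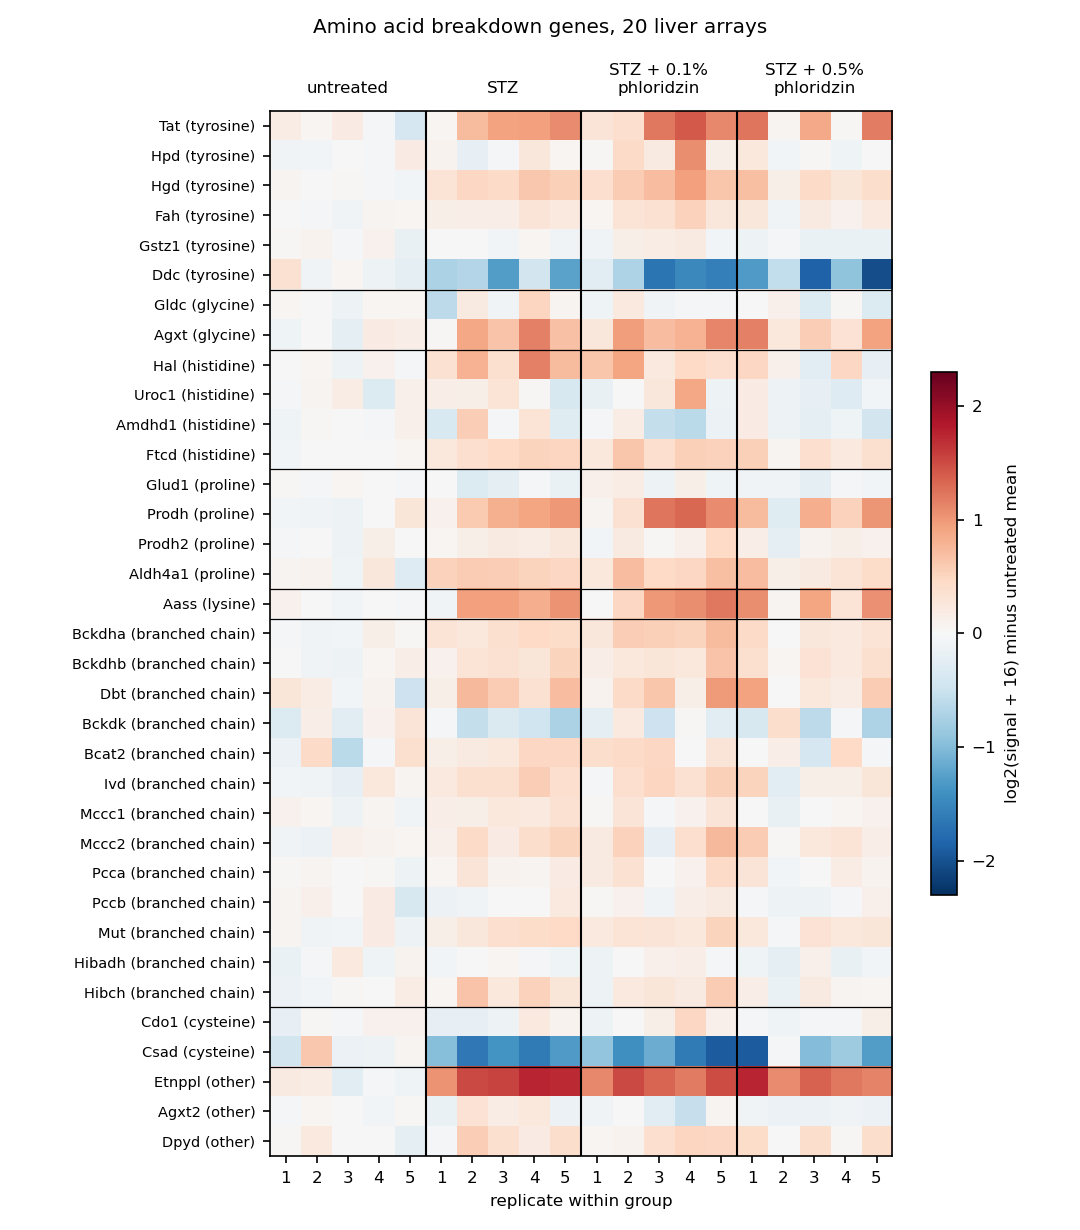
Log2(signal + 16) of the 35 measured members in each of 20 arrays, minus the mean of the untreated arrays (red higher, blue lower), with members grouped by amino acid class. STZ replicate 1, 0.1% phloridzin replicate 1 and 0.5% phloridzin replicate 2 are paler than their group, and exceeded the untreated range in 9, 12 and 7 members.

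Phloridzin was then compared with STZ alone, which asks whether the diet changed these genes in diabetic liver. No member was called at either dose (0 of 35, limma), and 0 of 12947 genes were called, which is 0% of all genes. At an unadjusted p under 0.05 there were 3 members at 0.1% (Hpd, Glud1 and Agxt2) and 3 at 0.5% (Hal, Mccc1 and Hibch), beside 685 and 622 of all genes. The lowest adjusted p of a member was 0.921 at 0.1% and 0.893 at 0.5%. The median difference was 0.02 at 0.1% (−0.04 without STZ replicate 1, with 22 of 35 members below 0). At that dose hepatocyte markers were above 0 for 8 of 8, with a median of 0.30. At 0.5% the median over the members was −0.11, and 31 of 35 had a difference below 0. The medians over all genes were −0.00 and 0.02. The 0.5% median and count were not taken without 0.5% replicate 2, the lowest of its group for 21 of 35 members.

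The 95% intervals of the members reached 0.17 to 0.59 log2 units to either side, with a median of 0.27. They are for single genes without adjustment, so a change larger than its interval could still go without a call. Hal had the lowest difference from STZ at 0.5%, at −0.56 with an interval from −0.91 to −0.21 (adjusted p = 0.893), and all 5 of its 0.5% arrays lay between 720 and 1204 against 1106 to 1954 in STZ liver. At 0.1% Hal differed by −0.17, with an interval from −0.51 to 0.18. Csad had the highest difference at 0.5%, 0.37 with an interval from −0.18 to 0.92. Etnppl differed from STZ by −0.19 (interval −0.49 to 0.12) at 0.1% and by −0.21 (−0.51 to 0.10) at 0.5%. Its second probe set differed by −0.29 at 0.1% and, with the opposite sign, by 0.17 at 0.5%. Mccc1 was the 1 member with no overlap between 0.5% and STZ arrays, at −0.22 and lower, against 0.842% of all genes in either direction and 0.317% lower. At 0.1% there were 0 such members, against 0.680% of all genes.

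Between the doses, 0 of 35 members were called and 0% of all genes, with 5 members at an unadjusted p under 0.05 (Hpd, Hgd, Gstz1, Hal and Bckdha, limma, all lower at 0.5%, lowest adjusted p = 0.753) beside 840 of all genes. Arrays of the doses overlapped for all 35 members, where 0.803% of all genes had no overlap. The difference of 0.5% from 0.1% was below 0 for 32 of 35 members, with a median of −0.13, while 7159 of 12947 genes were above 0 and the median over all genes was 0.02. Hepatocyte markers, Tat among them, lay the same way, with 7 of 8 below 0, a median of −0.25 and 4 at an unadjusted p under 0.05. In 0.1% replicate 4 their summed signal was 150429, against 57599 to 89468 in the other 19 arrays. Without that array 32 of 35 members were still below 0, with a median of −0.11. The count was not taken without 0.5% replicate 2, the lowest of its group for 21 of 35 members. The part of the hepatocyte markers in this result was not tested. It was −0.28 for Bckdha (interval −0.48 to −0.08), −0.26 for Hgd (−0.49 to −0.04) and −0.39 for Hal (−0.74 to −0.04). The comparisons of each dose with STZ share the STZ arrays, and this one shares arrays with both.

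**Figure D4:**
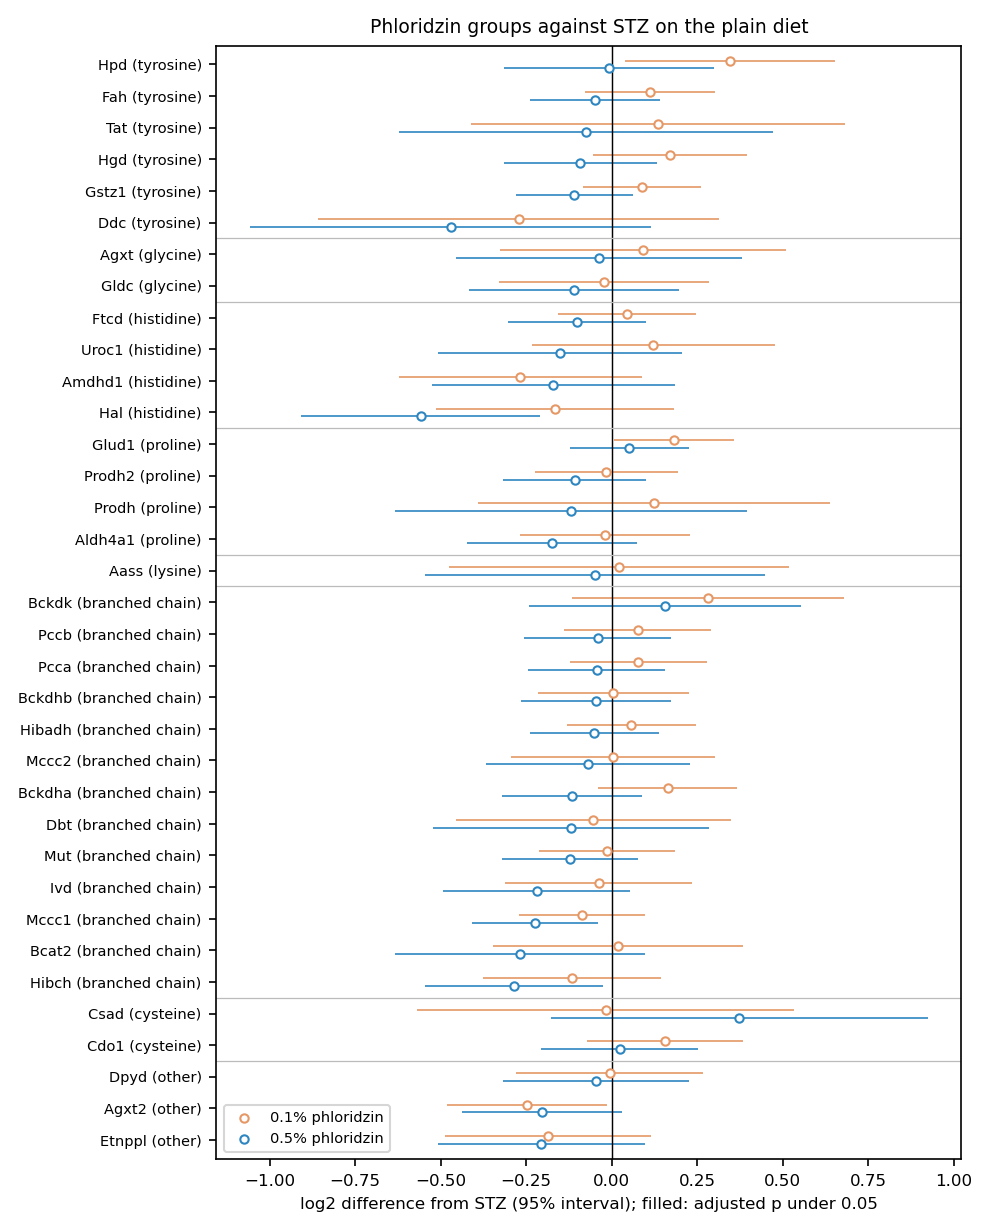
Log2 difference of each measured member between STZ mice fed 0.1% or 0.5% phloridzin and STZ mice fed the plain diet, with 95% intervals (5 arrays per group). All points are hollow because no member had an adjusted p under 0.05. Most 0.5% points lie left of 0, and Hal at −0.56 lies farthest left.

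Other genes of amino acid metabolism, most of them for breakdown but with the synthesis enzymes Glul, Asns, Phgdh, Psat1 and Psph among them, made a list of 58 of which 53 were on the array and 51 passed the filter. In STZ liver 17 rose and 2 fell, which is 37.3% of the 51, where 13.8% of all genes were called. The largest rises were Got1, the cytosolic aspartate aminotransferase, at 2.19 (4.56-fold), Oat, ornithine aminotransferase, at 1.57 and Mat1a, which makes S-adenosylmethionine, at 1.16. Glul, glutamine synthetase, fell by 0.58 and Acat1 by 0.32. The number that rose was 11 without STZ replicate 5, and 1 gene fell when STZ replicate 1 or 5, or else untreated replicate 1 or 3, was left out. Ppm1k, the phosphatase that opposes Bckdk, rose by 0.65 (adjusted p = 0.0109).

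With 0.1% phloridzin, 17 of these 51 genes rose and 2 fell against untreated (16.7% of all genes called), led by Got1 at 2.26, Oat at 1.81 and Mat1a at 1.41, with Glul at −0.73 and Acat1 at −0.35. Without 0.1% replicate 1, 4 fell. With 0.5%, 10 rose and 3 fell (25.5% of the 51, against 12.7% of all genes), led by Got1 at 2.11, Oat at 1.41 and Mat1a at 1.07, with Acat1 at −0.44, Bhmt at −0.43 and Bhmt2 at −0.27. The number that rose was 4 to 6 without untreated replicate 1, 2, 3 or 5 or 0.5% replicate 1, 3 or 5, and 1 gene fell without any of these except 0.5% replicate 3, and without 0.5% replicate 4. Against STZ, 0 of the 51 genes were called at either dose (limma, with 1 and 6 at an unadjusted p under 0.05, beside 685 and 622 of all 12947 genes).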

How the data were processed

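Liver RNA of 20 mice was measured on Affymetrix mouse arrays. The authors deposited intensity values, 1 linear signal per probe set and array, with a mean of 100 after trimming 2% at each end, as the values show. The summarising software was not given in the sources used here. Probe sets left out of the 45101 were 64 controls, 9160 with no gene and 932 with several genes. The rest named 18193 genes.

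Values were taken as log2(signal + 16), with the probe set of highest mean per gene, and a gene was kept when its mean reached the 40th percentile over probe sets, equal to 8.48 in signal. A fit of 4 group means to all 20 arrays used limma 3.58.1 (lmFit, eBayes) in R 4.3.3, with 16 residual degrees of freedom, two-sided, and Benjamini-Hochberg adjustment over 12947 genes. Calls were made at an adjusted p under 0.05, and 95% intervals are for single genes, without adjustment. Background was the highest median signal of any array. The labels number the replicates, and their labelling protocol describes RNA of single mice. The fit was tested on simulated data. Figures were drawn with matplotlib 3.10.9.

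Array values are given for members called in any comparison with a log2 difference of at least 0.58, and in a class without one, for the member with the smallest p. The first 3 rises and falls of other amino acid genes, and regulators that were called, are named; Ppm1k was chosen after its values were seen. The members, lists, motifs and tests were chosen with earlier results of these data known. Alternatives were quantile normalization, median centring, other filters, the mean of probe sets, a pseudocount of 1, only the groups compared, array weights, the replicate number as a block, and leaving out arrays 1 at a time. Leaving out both arrays that stood apart was chosen after seeing the data. Promoters came from a RefSeq table in build GRCm38.p6.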

Additional observations from a re-analysis of the deposited data

Results flagged for a closer look

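In 140 sets of 5 arrays (35 members in 4 groups), a single array lay far from the other 4 in 8 sets (5.71%), judged by the share of the group's range that the gap to the nearest array took up. Chance gives about 1 in 20 such sets, which is close to this share. In log2(signal + 16), Hpd read 13.53 in untreated replicate 5 against 13.26 to 13.33 in the other arrays, and Prodh read 9.92 in the same array against 9.54 to 9.64. Gldc read 10.1 in 0.1% phloridzin replicate 2 against 9.76 to 9.83, and Bckdhb 11.63 in 0.1% phloridzin replicate 5 against 11.12 to 11.25. In 0.5% phloridzin replicate 2, Prodh2 read 9.14 against 9.43 to 9.5, and Mut read 10.09 against 10.35 to 10.44. Cdo1 read 12.57 in 0.5% phloridzin replicate 5 against 12.34 to 12.4. Aass read 10.69 in STZ replicate 1 against 11.61 to 11.81. Their causes were not tested.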

How the results depend on the processing

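No call reversed its direction under any alternative run. For STZ against untreated, members that rose numbered 9, and 14 with only the groups compared, 16 with array weights and 14 without both arrays that stood apart, and 6 to 15 with 1 array left out. Those that fell numbered 2, and 1 with no filter, a pseudocount of 1 or without both arrays, and 1 to 2 with 1 array left out. With 0.1% phloridzin, 13 rose, 8 without both arrays and 7 to 14 with 1 array left out, and 2 fell throughout. With 0.5%, 4 rose, 2 with median centring, 10 with array weights and 1 to 10 with 1 array left out, and 2 fell, 1 to 2 with 1 array left out. The causes were not tested. The comparisons with STZ alone and between doses kept 0 calls under every alternative run. Hgd, Hal, Ftcd, Aldh4a1, Bckdha, Csad and Etnppl kept their STZ calls under every alternative, and Ddc and Etnppl their 0.5% calls.

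With the replicate number as a block, 11 members rose and 2 fell in STZ liver, 13 and 2 with 0.1% and 4 and 2 with 0.5% phloridzin, with 0 calls in the other comparisons. Mice were assigned to 1 group each. Of 30 pairs of arrays with the same replicate number, 13 correlated over 0.1, and all 30 lay between −0.41 and 0.50. Pairs with different numbers were not compared, so these values cannot show whether the numbers mark a pairing. Bcat2, with group means from 19.1 to 26.7, lay close to the background limit of 17.1, where differences are understated.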

Other observations

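Regulators known to act on amino acid breakdown genes were described as a list of 16, of which 15 were measured. In STZ liver 3 rose and 0 fell (limma), or 20% of them where 13.8% of all genes were called. At an unadjusted p under 0.05 there were 6 of the 15, beside 3671 of all 12947 genes. Ppargc1a, a coactivator of fasting metabolism, rose by 1.46 (2.76-fold, adjusted p = 0.00265), Foxo3, a forkhead factor restrained by insulin, by 0.97 (adjusted p = 0.00115) and Klf15, a factor of amino acid use in fasting, by 0.80 (adjusted p = 0.0247). Without STZ replicate 1, 5 rose, and without 0.1% phloridzin replicate 4, 1 fell. With 0.1% phloridzin, Ppargc1a rose by 1.20 and Foxo3 by 0.70 against untreated, and Nr3c1, the glucocorticoid receptor, fell by 0.55 (20% of the list, 16.7% of all genes). With 0.5%, Ppargc1a rose by 1.43 (6.67% of the list, 12.7% of all genes), and the number that rose was 5 without 0.5% replicate 2 and 2 without STZ replicate 4 or 0.5% replicate 4. Cebpb differed by 0.80, 0.71 and 0.76 in the 3 groups without passing the test. Against STZ, 0 regulators were called at either dose, with 2 and 1 at an unadjusted p under 0.05, beside 685 and 622 of all 12947 genes.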
